A study of Caenorhabditis elegans with 11 samples.

Results

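The comparison described here is the loss of the histone methyltransferase genes met-2 and set-25 in Caenorhabditis elegans that already lacked set-32, read as RNA polymerase II (Pol II) occupancy along the genome. It rests on 4 of the 11 samples of the series, chosen by genotype and not by any measured value. All were young adult hermaphrodites grown on OP50 bacteria, and each was profiled by chromatin immunoprecipitation and sequencing (ChIP-seq) with an antibody to Pol II. Both libraries without MET-2 and SET-25 carried set-32(red11), met-2(n4256) and set-25(n5021). The one with these mutations alone is called the set-32 triple mutant, and the one that also carried hrde-1(tm1200) the quadruple mutant; legends spell the genotypes out. The 2 libraries they were set against carried set-32(red11) alone or with hrde-1(tm1200), and are called set-32 and set-32 hrde-1. All 4 thus shared the set-32 mutation, and each library of the first kind had a partner of equal hrde-1 status. The resulting pairs are called the hrde-1-intact pair and the hrde-1-mutant pair. No genotype had a replicate, and cultures per library are not given, so p-values measure only the spread between libraries of different genotypes. The fit had a common hrde-1 effect for all backgrounds, so any change that differed with hrde-1 status counted as spread. The other 4 Pol II libraries (met-2 set-25 without and with the hrde-1 mutation, N2 wild type and hrde-1) had intact SET-32 and served to estimate the spread and to show where the effect differed.

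MET-2 and SET-25 are the main methyltransferases for lysine 9 of histone H3 in C. elegans, with MET-2 placing the lower methylation states and SET-25 adding the trimethyl mark that typifies heterochromatin on repeats and silent genes. SET-32 is a further SET domain protein, which takes part in the silencing that follows nuclear RNA interference in the germline. In that pathway the Argonaute protein HRDE-1 carries small RNAs into germline nuclei, where their targets lose transcription and gain heterochromatin. Pol II occupancy reports on transcription, and whole adults mix germline with somatic nuclei, so fewer nuclei with Pol II at a site and less Pol II per nucleus cannot be told apart.

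Values were RPKM, reads per kilobase scaled to the library's total, in 100257 bins of 1 kb, so a bin's value is its share of the library's reads. The estimated depth was 6.05 M reads in the set-32 triple mutant and 3.06 M in the quadruple mutant, against 3.03 M in set-32 and 6.05 M in set-32 hrde-1, so the deeper library lacked MET-2 and SET-25 in 1 pair and had them in the other. At 10 RPKM the counting error was 12.9 to 18.2%. The libraries without MET-2 and SET-25 stood apart in their evenness. Dividing the 90th percentile of bins by the 10th gave 3.72 in the set-32 triple mutant and 4.31 in the quadruple mutant, against 24.96 in set-32 and 14.5 with hrde-1 also mutant, and 7.63 to 14.1 in the libraries with SET-32 intact. Because the evenly covered libraries are the whole of 1 side of the comparison, evenness and genotype cannot be told apart. Counts and changes are therefore given as deposited and after quantile normalization, which gives all libraries the same distribution of values; RPKM values are as deposited.

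As deposited, Pol II occupancy without MET-2 and SET-25 was higher over the weakly bound part of the genome and lower over the strongly bound part. Of 100027 bins tested, 36653 (36.6%) rose and 8241 (8.24%) fell (limma on log2(RPKM + 1), Benjamini-Hochberg adjusted p below 0.05). The bins that rose had a median of 6.03 RPKM in the set-32 triple mutant and 5.87 RPKM in the quadruple mutant, against 1.65 RPKM in set-32 and 2.15 RPKM in set-32 hrde-1. The bins that fell had medians of 15.9 and 16.4 RPKM without MET-2 and SET-25, against 31.0 RPKM in set-32 and 29.2 RPKM in set-32 hrde-1. Of these bins, 36628 and 8228 moved the same way in both pairs, which a test on the mean of these pairs favours. Over all bins the pairs had the same sign in 85.8% as deposited and in 56.2% after quantile normalization. The counts rested on particular libraries: 21 bins rose and 12 fell without the quadruple mutant, 665 and 1440 without the set-32 triple mutant, and 791 and 549 without set-32. The median log2 change over all bins was 0.66 as deposited and -0.0038 after quantile normalization, and centring each library on its median gave 2829 higher and 26163 lower bins, the opposite split. With the prefix of the library names as a term, 619 rose and 1057 fell. The hrde-1-mutant pair shares a prefix, and the set-32 triple mutant has one that no other library used here carries. The prefix term thus fits that library by itself and takes it out of the contrast.

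The bins were ranked by their mean level in the libraries with SET-32 intact, which are not among the 4 compared, and cut into 10 classes of equal size. The changes ran in the order of that level. In class 1, the lowest, with a median of 2.03 RPKM in the SET-32-intact libraries, the median log2 change was 1.44 in the hrde-1-intact pair and 0.98 in the hrde-1-mutant pair. In class 10, the highest, with a median of 31.3 RPKM, it was -0.71 and -0.51. The sign turned between class 7 (0.22 and 0.25) and class 8 (-0.19 and -0.08). The same losses with SET-32 intact gave 0.34 and 0.10 in class 1 and -0.22 and -0.12 in class 10. After quantile normalization the medians of the classes lay between -0.12 and 0.10 in both set-32 pairs.

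**Figure D1:**
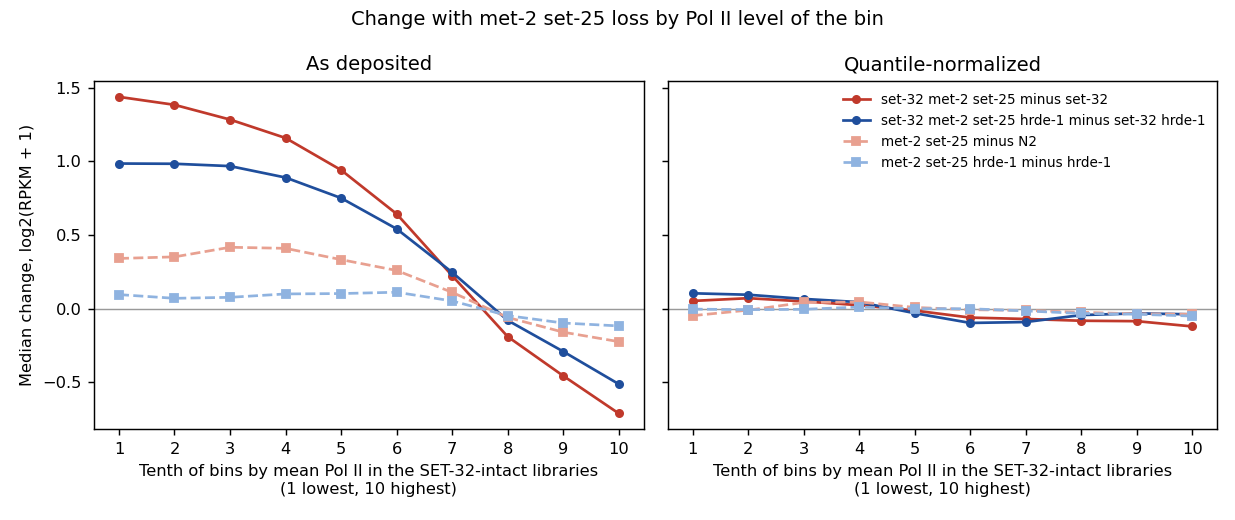
Median change of log2(RPKM + 1) (vertical axis) in 10 classes of bins ranked by mean Pol II in the 4 SET-32-intact libraries (horizontal axis), as deposited on the left and quantile-normalized on the right; solid lines are the set-32 pairs and dashed lines the SET-32-intact pairs. On the left both solid lines run downward, from 1.44 and 0.98 in class 1 to -0.71 and -0.51 in class 10, and on the right all lines stay near 0.

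At the most strongly bound sites the peak was lower and its surroundings slightly higher. The 1000 bins with the highest mean in the SET-32-intact libraries had a median of 54.4 RPKM in the set-32 triple mutant and 53.8 RPKM in the quadruple mutant, against 102.7 RPKM in set-32 and 94.7 RPKM in set-32 hrde-1. At 10 kb from these bins the order was the other way round, at 8.89 and 8.97 RPKM without MET-2 and SET-25, against 7.53 and 7.55 RPKM with them. The ratio of centre to 10 kb was 6.12 and 6.001 without MET-2 and SET-25, against 13.6 in set-32 and 12.5 with hrde-1 also mutant. Among these 1000 bins, 822 were lower in both pairs as deposited, against 21129 of all 100257 bins. In the test 589 passed as lower and 19 as higher, against 8241 and 36653 of all 100027 bins tested. After quantile normalization 512 were lower in both pairs, against 29108 of all 100257 bins, with median changes of -0.27 and -0.14. On that scale 51 passed as lower and 19 as higher, against 460 and 420 of all 100027 bins tested.

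**Figure D2:**
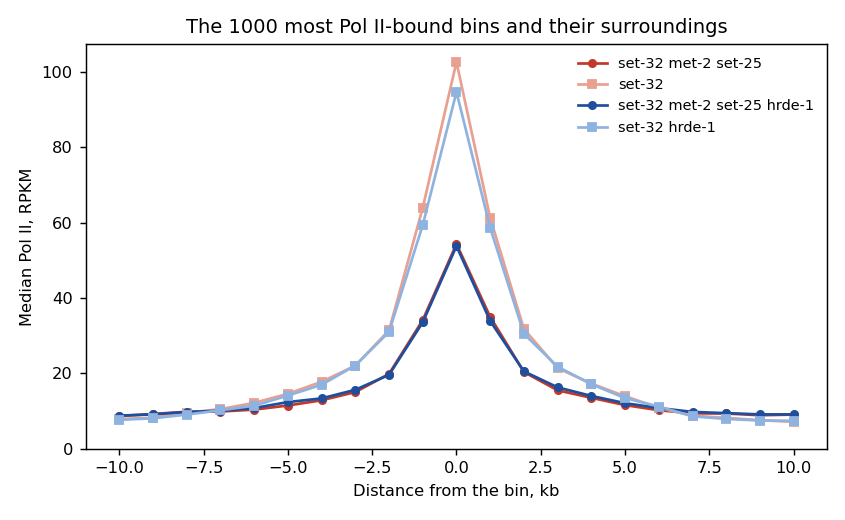
Median Pol II in RPKM (vertical axis) at distances of up to 10 kb (horizontal axis) from the 1000 bins most strongly bound in the SET-32-intact libraries; each line is 1 of the 4 set-32 libraries. Both libraries without MET-2 and SET-25 peak near 54 RPKM, below the 102.7 and 94.7 RPKM of their partners, and beyond about 8 kb they lie slightly above them.

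Chromosomes differed in the same manner. As deposited, 47.2% of the bins tested on X and 45.8% of those on chromosome V rose, against 25.3% on I and 24.2% on III. On X 1.39% of bins fell, against 13.3% on III and 12.6% on I. The median change of X was 0.98 in the hrde-1-intact pair and 0.72 in the hrde-1-mutant pair, and that of III was 0.17 and 0.19. After quantile normalization the medians of the 6 chromosomes lay between -0.09 and 0.05 in both pairs. The shares of bins that fell still differed on that scale, at 0.17% on X, against 0.70% on III and 0.64% on I. Bins that rose made up 0.28% to 0.50% of each chromosome. The median change of autosome arms, taken as the outer parts when a chromosome is cut evenly in 3, minus that of centres was 0.04 as deposited and -0.03 after quantile normalization.

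After quantile normalization 420 bins (0.42%) rose and 460 (0.46%) fell, in 212 and 419 regions, while 5829 and 6930 had an unadjusted p below 0.05 (limma). Of these 420 bins, 413 had also risen as deposited, 435 of the 460 had also fallen, and no bin passed in opposite directions on the 2 scales. These counts too were set by few libraries: 0 rose and 1 fell without set-32, where 3108 and 3371 had an unadjusted p below 0.05 (limma), and 28 and 17 passed without the quadruple mutant. The count of lower bins was 55 without set-32 hrde-1, 1271 without the set-32 triple mutant, 232 without N2 and 234 without hrde-1. By size alone, 625 of 37960 bins that reached 10 RPKM in 1 of the 4 libraries (1.65%) were at least 2-fold higher in both pairs after quantile normalization and 480 (1.26%) at least 2-fold lower. As deposited these were 1039 (2.74%) and 1213 (3.2%). The changes of the 2 pairs, which share no library, correlated across the 100257 bins with r = 0.70 as deposited and r = 0.23 after quantile normalization; bins share the evenness of their libraries and are not independent replicates.

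Of the regions named by rule, the one with the largest rise on both scales lay on chromosome I, from 10198001 to 10222000. Pol II averaged 47.8 RPKM in the set-32 triple mutant and 31.6 RPKM in the quadruple mutant, against 6.85 RPKM in set-32 and 10.04 RPKM in set-32 hrde-1. Both libraries without MET-2 and SET-25 were above both of their partners (log2 change 1.94 ± 0.30 SE as deposited and 2.02 ± 0.30 SE after quantile normalization, smallest limma adjusted p of its bins 0.000691 and 0.00238). Regions were not tested as units, so a p given for one belongs to its best bin. Of its 24 bins, 16 carry the authors' misanotated mark, described below. With SET-32 intact the region read 32.8 RPKM in met-2 set-25 and 21.6 RPKM in met-2 set-25 hrde-1, against 10.6 RPKM in N2 and 9.54 RPKM in hrde-1 (log2 change 1.10, smallest limma adjusted p 0.0829).

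A 19 kb region of chromosome IV, 5676001 to 5695000, behaved alike and carries 1 marked bin. It read 11.1 RPKM in the set-32 triple mutant and 10.9 RPKM in the quadruple mutant, against 2.24 RPKM in set-32 and 3.37 RPKM in set-32 hrde-1 (log2 change 1.65 ± 0.36 SE, smallest limma adjusted p 0.00107, and 1.07 ± 0.34 SE, 0.00348, after quantile normalization). The 2 libraries without MET-2 and SET-25 nearly coincided there and did not overlap with the others. It also rose with SET-32 intact, at 9.49 RPKM in met-2 set-25 and 7.43 RPKM in met-2 set-25 hrde-1, against 3.74 RPKM in N2 and 3.59 RPKM in hrde-1 (log2 change 0.93, smallest limma adjusted p 0.0067). This region and the one on chromosome I stayed past the threshold under each alternative run for them.

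The other 8 higher regions named by rule were shorter or weaker, and none holds a marked bin. On chromosome II, 14030001 to 14032000 read 10.6 and 9.14 RPKM without MET-2 and SET-25, against 1.81 RPKM in set-32 and 2.64 RPKM in set-32 hrde-1 (log2 change 1.91 ± 0.35 SE, smallest limma adjusted p 0.00382, and 1.38 ± 0.32 SE, 0.0495, after quantile normalization). There the libraries with SET-32 intact stood at 2.50 and 2.43 RPKM without MET-2 and SET-25, against 3.78 RPKM in N2 and 3.50 RPKM in hrde-1, and the difference between the backgrounds passed its own test as deposited (2.33, smallest limma adjusted p 0.0409) but not after quantile normalization (1.98, 0.108). X 10337001 to 10339000 read 12.5 and 9.29 RPKM without MET-2 and SET-25, against 2.97 RPKM in set-32 and 2.23 RPKM in set-32 hrde-1, and its log2 change was 1.61 as deposited and 1.07 after quantile normalization. Its difference between the backgrounds likewise passed as deposited (1.85, smallest limma adjusted p 0.0403) and not after quantile normalization (1.43, 0.0947). The single bins V 6400001 and III 5101001 reached 18.2 and 13.4 RPKM in the set-32 triple mutant, and 12.1 and 9.97 RPKM in the quadruple mutant, against 2.95 to 4.13 RPKM in their partners, with log2 changes of 1.65 at each as deposited and of 1.55 and 1.38 after quantile normalization. The longest region, 26 kb of chromosome V from 2456001 to 2482000, stood at 7.20 and 6.71 RPKM without MET-2 and SET-25, against 1.78 RPKM in set-32 and 1.81 RPKM in set-32 hrde-1. It passed after quantile normalization in 1 of its 26 bins, at a mean change of 0.68. X 11416001 to 11419000, III 10184001 to 10189000 and I 14982001 to 14991000 stood at 6.74 to 8.31 RPKM without MET-2 and SET-25, against 0.737 to 2.79 RPKM with them, and changed by 0.74 to 1.02 after quantile normalization. These 8 regions did not pass when the quadruple mutant was left out, at log2 changes of 1.54 to 2.07, and 4 of the 10 did not pass without the set-32 triple mutant.

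**Figure D3:**
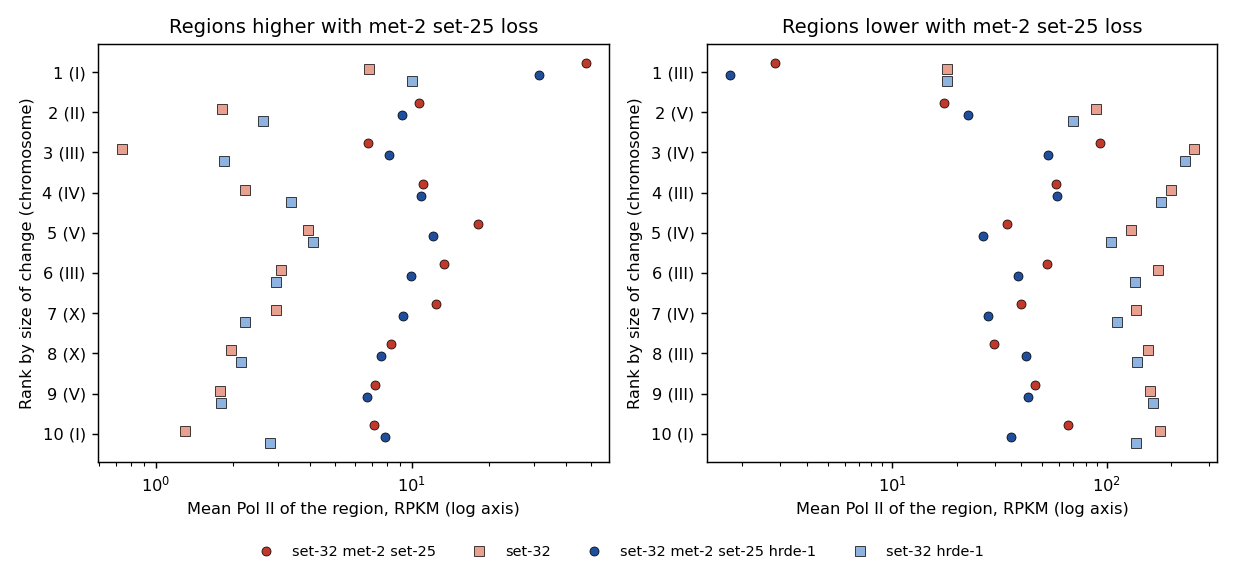
Mean Pol II in RPKM on a log axis (horizontal) of the 10 higher and 10 lower regions named by rule, ranked from the largest change downward (vertical, chromosome in brackets); circles are libraries without MET-2 and SET-25 and squares their set-32 partners. In each region both circles lie on 1 side of both squares, as the rule required within pairs.

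The lower regions were of 2 kinds. On chromosome III, 13287001 to 13289000 read 2.85 RPKM in the set-32 triple mutant and 1.76 RPKM in the quadruple mutant, against 17.9 RPKM in set-32 and 18.1 RPKM in set-32 hrde-1 (log2 change -2.97 ± 0.31 SE, smallest limma adjusted p 5.14e-05, and -3.23 ± 0.30 SE, 0.000295, after quantile normalization). Its second bin held 0.17 and 0 RPKM without MET-2 and SET-25, against 19.1 RPKM in set-32 and 16.8 RPKM in set-32 hrde-1. The lowest other bin of the chromosome, III 8376001 to 8377000, chosen after its values were seen, read 4.29 and 4.24 RPKM without MET-2 and SET-25, against 47.8 RPKM in set-32 and 32.5 RPKM in set-32 hrde-1 (log2 change -2.94 ± 0.31 SE, limma adjusted p 0.000557, and -3.48, 0.00238, after quantile normalization). As background, met-2 and set-25 both lie on chromosome III, and the 4 libraries without them carried the same alleles. With SET-32 intact the first of these regions read 2.68 and 1.59 RPKM without MET-2 and SET-25, against 20.9 RPKM in N2 and 19.6 RPKM in hrde-1, and the difference between the backgrounds was 0.26 (limma adjusted p 0.637) as deposited and -0.12 (0.89) after quantile normalization. Whether the DNA of these bins is present in the mutants was not tested.

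The other 9 lower regions named by rule were strongly bound sites. III 4489001 to 4492000 read 57.9 RPKM in the set-32 triple mutant and 58.6 RPKM in the quadruple mutant, against 199.6 RPKM in set-32 and 179.7 RPKM in set-32 hrde-1 (log2 change -1.98 ± 0.32 SE, smallest limma adjusted p 0.000557, and -1.35 ± 0.23 SE, 0.00238, after quantile normalization). IV 4389001 to 4391000, the site with the most Pol II among them, read 93.7 and 53.3 RPKM without MET-2 and SET-25, against 256.4 RPKM in set-32 and 231.7 RPKM in set-32 hrde-1. V 4890001 to 4892000 read 17.5 and 22.6 RPKM without MET-2 and SET-25, against 89.7 RPKM in set-32 and 70.1 RPKM in set-32 hrde-1. The rest were IV 11410001 to 11413000, III 3068001 to 3070000, IV 5470001 to 5474000, III 7101001 to 7104000, III 4016001 to 4020000 and I 7586001 to 7589000, with log2 changes of -1.97 to -1.87. After quantile normalization the 9 were at -1.53 to -1.28. With SET-32 intact they were at -0.21 to 0.31, and the difference between the backgrounds passed in at least 1 bin of each as deposited (smallest limma adjusted p 0.00495 to 0.0241). After quantile normalization it passed in 6 of the 9 (0.028 to 0.0347) and not in IV 4389001 to 4391000 (0.113), IV 11410001 to 11413000 (0.0742) or I 7586001 to 7589000 (0.0835). Of the 10 lower regions 4 did not pass without the quadruple mutant, at -1.63 to -1.35.

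**Figure D4:**
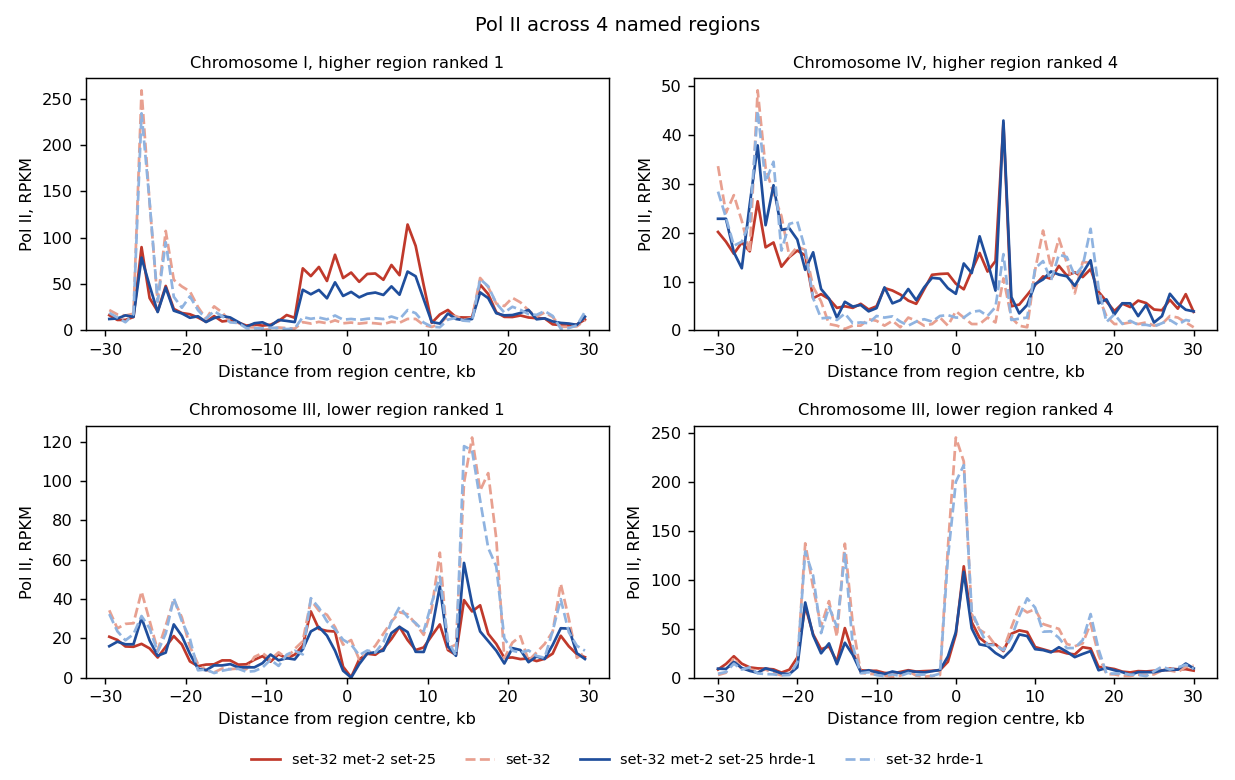
Pol II in RPKM (vertical axis) within 30 kb of the centre (horizontal axis) of 2 higher regions, above, and 2 lower regions, below; solid lines are the libraries without MET-2 and SET-25 and dashed lines their set-32 partners. The chromosome I region forms a block at 31.6 to 47.8 RPKM on average above its partners, while the peak of the lower region ranked 4 stands at about 58 RPKM on average, against 179.7 and 199.6 RPKM.

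The deposited table marks some bins as GRTS, GRH or misanotated (spelled as in the table), and their definition is not given in these sources. In the field GRTS and GRH have named regions whose transcriptional silencing or heterochromatin depends on germline nuclear RNA interference. The misanotated bins were the most distinct of the 3. Their median was 31.8 RPKM in the set-32 triple mutant and 32.1 RPKM in the quadruple mutant, against 11.5 RPKM in set-32 and 16.2 RPKM in set-32 hrde-1. Both medians without MET-2 and SET-25 were about equal and above both partners. The median change was 1.40 in the hrde-1-intact pair and 1.02 in the hrde-1-mutant pair as deposited, 1.73 and 1.35 after quantile normalization, and 0.59 and 0.30 with median centring. Of the 502 tested, 388 rose as deposited (77.3%, against 36.6% of all bins) and 3 fell, and 296 rose after quantile normalization (59.0%, against 0.42%) and 1 fell, so 296 of the 420 bins that rose on that scale (70.5%) carry this mark. The 3 most even libraries stood apart in this level. It was 22.8 RPKM in met-2 set-25, which came next in evenness after the libraries without MET-2, SET-25 and SET-32. In the other 5 it was 11.5 to 16.2 RPKM. Among these the least even, set-32, had the lowest level, at 11.5 RPKM. The rest, at 13.3 to 16.2 RPKM, did not follow the order of evenness. The part of evenness in the rise was not tested. The bin with the largest change, I 10217001 to 10218000, read 114 and 63.6 RPKM without MET-2 and SET-25, against 12.5 RPKM in set-32 and 22.1 RPKM in set-32 hrde-1. At the other end, II 10875001 to 10876000 read 8.25 and 5.22 RPKM without MET-2 and SET-25, against 33.6 RPKM in set-32 and 30.4 RPKM in set-32 hrde-1 (limma adjusted p 0.00528, and 0.0209 after quantile normalization).

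GRTS bins separated by hrde-1 status first, with both hrde-1-mutant libraries above both others. Their median was 7.84 RPKM in the set-32 triple mutant and 32.1 RPKM in the quadruple mutant, against 3.95 RPKM in set-32 and 58.9 RPKM in set-32 hrde-1. As deposited, the GRTS level without MET-2 and SET-25 was thus higher where HRDE-1 was present and lower where it was absent. The median changes were 0.81 and -0.87, against 0.71 and 0.52 over all bins. After quantile normalization they were 0.10 and -0.31, against -0.02 and 0.0008 over all bins. With median centring they were 0.0033 and -1.59, against -0.10 and -0.20. The rise in the hrde-1-intact pair as deposited was thus close to that of all bins. Bins at like levels in the set-32 partners also moved these ways as deposited. In the hrde-1-intact pair classes 5 and 6, at 2.96 and 4.28 RPKM in set-32, changed by 0.94 and 0.64. In the hrde-1-mutant pair class 10 and the 1000 most bound bins, at 33.8 and 94.7 RPKM in set-32 hrde-1, changed by -0.51 and -0.79. After quantile normalization these were -0.04 and -0.14. The part of level in the opposite signs was not tested. Of 191 GRTS bins, 165 were higher in the hrde-1-intact pair and 23 in the hrde-1-mutant pair as deposited (86.4% and 12.0%, against 71.7% and 71.9% of all bins). After quantile normalization 111 and 53 were (58.1% and 27.7%, against 48.0% and 50.1% of all bins). In the limma test, 10 rose and 12 fell as deposited (5.24% and 6.28%, against 36.6% and 8.24% of all bins), and 0 rose and 0 fell after quantile normalization, where 17 and 19 had an unadjusted p below 0.05. That test averages the 2 pairs and counts their disagreement as spread, so few calls do not show that these bins were unchanged. With SET-32 intact the medians changed by -0.19 and 0.04 after quantile normalization. A 2 against 2 exact permutation test of such a median cannot give a p below 0.333, so none was run.

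Single GRTS bins departed from this pattern. IV 527001 to 528000, which also carries the GRH mark, read 19.2 RPKM in the set-32 triple mutant and 73.7 RPKM in the quadruple mutant, against 1.32 RPKM in set-32 and 74.3 RPKM in set-32 hrde-1. It was thus higher in the hrde-1-intact pair and about equal in the other, and in met-2 set-25 it read 10.7 RPKM, against 2.7 RPKM in N2. II 13249001 to 13250000 gave the same picture, at 17.3 and 42.6 RPKM without MET-2 and SET-25, against 2.31 RPKM in set-32 and 45.5 RPKM in set-32 hrde-1, and with 12.7 RPKM in met-2 set-25, against 4.32 RPKM in N2. Both passed as deposited (limma adjusted p 0.0205 and 0.0335) and did not after quantile normalization (0.0763 and 0.124). The lowest bin, III 12382001 to 12383000, read 6.56 and 11.6 RPKM without MET-2 and SET-25, against 12.7 RPKM in set-32 and 37.6 RPKM in set-32 hrde-1 (limma adjusted p 0.0145, and 0.111 after quantile normalization). II 5099001 to 5100000 read 5.78 and 14.4 RPKM without MET-2 and SET-25, against 7.91 RPKM in set-32 and 51.3 RPKM in set-32 hrde-1.

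GRH bins had a median of 12.9 RPKM in the set-32 triple mutant and 18.0 RPKM in the quadruple mutant, against 15.5 RPKM in set-32 and 27.2 RPKM in set-32 hrde-1. The median change was -0.27 and -0.45 as deposited, -0.05 and -0.13 after quantile normalization, and -1.08 and -1.17 with median centring. Of 215 bins 40 fell and 11 rose as deposited (18.6% and 5.12%, against 8.24% and 36.6% of all bins). After quantile normalization 1 fell and 0 rose, a share near the 0.46% and 0.42% of all bins, with 26 and 19 at an unadjusted p below 0.05 (limma). The bin that fell, I 251001 to 252000, read 5.31 and 7.48 RPKM without MET-2 and SET-25, against 10.7 RPKM in set-32 and 21.3 RPKM in set-32 hrde-1 (limma adjusted p 0.0349 after quantile normalization). The lowest GRH bins were on X, where X 255001 to 256000 read 7.10 RPKM in the set-32 triple mutant and 0.82 RPKM in the quadruple mutant, against 5.93 RPKM in set-32 and 23.7 RPKM in set-32 hrde-1.

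**Figure D5:**
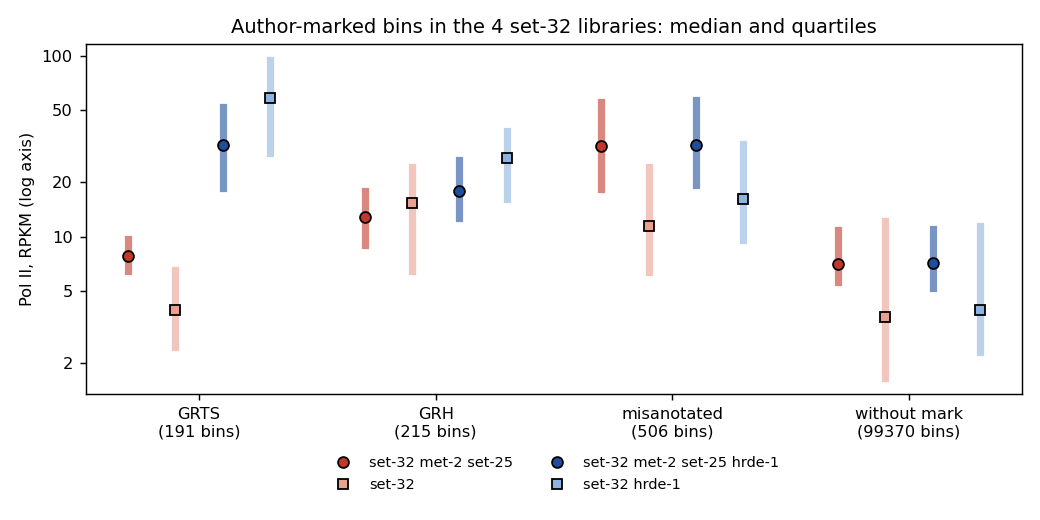
Pol II in RPKM on a log axis (vertical) for bins with each author mark and without any (horizontal); markers are medians over bins and bars run from the first to the third quartile, 1 for each set-32 library. Misanotated bins stand at 31.8 and 32.1 RPKM without MET-2 and SET-25, above 11.5 and 16.2 RPKM in their partners, while GRTS bins separate by hrde-1 status.

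Loci that gained Pol II in the hrde-1 library over N2 include most GRTS bins, so their values are in part those of the GRTS bins. These 875 bins, at least 2-fold higher in hrde-1 than in N2 and at 10 RPKM or more in 1 of them, were chosen in libraries outside the comparison and hold 181 GRTS bins, 93 GRH bins and 15 misanotated bins. They had medians of 9.27 RPKM in the set-32 triple mutant and 18.7 RPKM in the quadruple mutant, against 6.94 RPKM in set-32 and 26.6 RPKM in set-32 hrde-1. After quantile normalization the median change was 0.05 in the hrde-1-intact pair and -0.19 in the hrde-1-mutant pair, and 4 bins rose and 8 fell (0.457% and 0.914%, against 0.42% and 0.46% of all bins). As deposited it was 0.38 and -0.51, and with median centring -0.43 and -1.23, so its sign in the hrde-1-intact pair turned with the scale. The 611 of these bins without any mark, separated after the data were seen, had median changes of 0.01 and -0.15 after quantile normalization, 0.30 and -0.40 as deposited, and -0.51 and -1.12 with median centring. The 694 bins within 5 kb of a GRTS bin had median changes of 0.79 and 0.03 as deposited, -0.02 and -0.06 after quantile normalization, and -0.02 and -0.69 with median centring. After quantile normalization 3 of them rose and 5 fell (0.432% and 0.72%), near the shares of all bins. The first 500 kb of X set the pairs apart. Its median was 7.29 RPKM in the set-32 triple mutant, against 5.14 RPKM in set-32. It was 4.24 RPKM in the quadruple mutant, against 5.65 RPKM in set-32 hrde-1. With SET-32 intact, N2 stood at 5.4 RPKM and hrde-1 at 3.85 RPKM. Loss of MET-2 and SET-25 in that background gave 5.66 RPKM with HRDE-1 and 3.79 RPKM without it. As deposited, set-32 hrde-1 was thus the highest of the hrde-1-mutant libraries, and the quadruple mutant was not the lowest. On the quantile-normalized log2 scale the quadruple mutant was the lowest of them, at 1.72, against 2.41 to 2.94. Why set-32 hrde-1 stood higher was not tested. After quantile normalization the median change there was -0.14 in the hrde-1-intact pair and -1.09 in the hrde-1-mutant pair. In the latter, 92 of 500 bins were higher (18.4%, against 50.1% of all bins). As deposited it was 0.48 and -0.35, and with median centring -0.33 and -1.07. Of its bins 15 of 496 tested (3.02%) fell and 5 rose (1.01%), against 0.46% and 0.42% of all bins.

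Bins that gained Pol II upon met-2 set-25 loss with SET-32 intact were also mostly higher in the set-32 background. The 151 bins that were at least 2-fold higher in both SET-32-intact pairs and reached 10 RPKM had median changes of 1.11 and 0.77 in the set-32 pairs as deposited, 0.30 and 0.05 with median centring, and 0.56 and 0.24 after quantile normalization, against 0.71 and 0.52, and -0.02 and 0.00, over all bins. After quantile normalization 112 were higher in the hrde-1-intact pair (74.2%) and 97 in the hrde-1-mutant pair (64.2%), against 48.0% and 50.1% of all bins. In the test 27 rose (17.9%, against 0.42% of all bins) and 0 fell (against 0.46%), with 56 and 8 at an unadjusted p below 0.05 (limma). Without the 17 misanotated bins among them the median changes were 0.46 and 0.16 after quantile normalization, but 0.20 and -0.02 with median centring, and 11 of 134 rose after quantile normalization. The 23 bins that were at least 2-fold lower in both SET-32-intact pairs had median changes in the set-32 pairs of 0.26 and -0.21 as deposited, 0.13 and -0.35 after quantile normalization, and -0.55 and -0.93 with median centring, so the sign in the hrde-1-intact pair turned with the scale. After quantile normalization 3 of them rose and 4 fell (13.0% and 17.4%, against 0.42% and 0.46% of all bins). Those that fell include the bins of III 13287001 to 13289000 and III 8376001 to 8377000, described above. Whether their DNA is present in the mutants was not tested.

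With SET-32 intact, met-2 set-25 loss moved few bins in the same fit: 18 rose (0.018%) and 7 fell (0.007%) as deposited, and 0 rose and 1 fell (0.001%) after quantile normalization (limma). Whether the effect differed between set-32 mutants and animals with SET-32 was tested as an interaction in the same fit. The difference was above 0 in 36 bins (0.036%) and below 0 in 216 (0.216%) as deposited (limma, Benjamini-Hochberg adjusted), and in 7 (0.007%) and 26 (0.026%) after quantile normalization, all of which had also passed as deposited. The 216 bins were strongly bound, 183 of them in class 10 by level, and had medians of 13.9 RPKM in the set-32 triple mutant and 12.9 RPKM in the quadruple mutant, against 42.2 RPKM in set-32 and 44.1 RPKM in set-32 hrde-1. In the other background the medians were 32.6 RPKM in met-2 set-25 and 50.6 RPKM in met-2 set-25 hrde-1, against 27.7 RPKM in N2 and 33.9 RPKM in hrde-1. X held 3 of these bins and the autosomes 35 to 47 each. X has 17673 of the 100027 bins tested, but 3641 of the 37960 that reached 10 RPKM in 1 of the 4 set-32 libraries. Whether X held fewer than its level would give was not tested. None of the 216 bins, and none of the 36, carries a mark. Only 887 of all 100257 bins carry one, so few were to be found in lists of this size. The counts of bins past the threshold depended on the libraries. Leaving out the quadruple mutant gave 0 and 0, with 7826 and 3327 bins at an unadjusted p below 0.05 (limma), and leaving out met-2 set-25 hrde-1 gave 0 and 0, with 9150 and 2857. When N2 was omitted they were 4 and 8, and for hrde-1 7 and 1. For set-32 they were 4 and 7, for met-2 set-25 1351 and 879, and for set-32 hrde-1 6419 and 1283.

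III 6971001 to 6972000 had the largest negative difference. It read 51.0 RPKM in the set-32 triple mutant and 27.7 RPKM in the quadruple mutant, against 272.1 RPKM in set-32 and 232.7 RPKM in set-32 hrde-1, while with SET-32 intact it read 155.1 and 283.7 RPKM without MET-2 and SET-25, against 122.4 RPKM in N2 and 186.9 RPKM in hrde-1 (difference -3.18 ± 0.55 SE, limma adjusted p 0.0241, and 0.066 after quantile normalization). In the opposite direction IV 13083001 to 13085000 passed on both scales. It read 32.5 and 37.7 RPKM without MET-2 and SET-25, against 19.4 RPKM in set-32 and 12.8 RPKM in set-32 hrde-1, and with SET-32 intact 10.8 and 3.72 RPKM without MET-2 and SET-25, against 25.4 RPKM in N2 and 27.4 RPKM in hrde-1. The difference was 3.11 ± 0.44 SE (smallest limma adjusted p 0.00495) as deposited and 3.35 ± 0.43 SE (0.028) after quantile normalization. Both set-32 pairs were higher there without MET-2 and SET-25, and both SET-32-intact pairs were lower.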

How the data were processed

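Pol II ChIP-seq libraries of 8 genotypes, 1 each, were used; the 3 H3K9me3 samples were not analysed here. RPKM values per 1 kb bin were made and deposited by the authors, and the submitters' processing notes name Bowtie 0.12.7; genome build, multi-mapping and filters are not given in these sources. The marks GRTS, GRH and misanotated are the authors' yes-or-no columns, deposited in the same table. Positions are those of the table, where chromosome V ends at 20920 kb. The gene table at hand is of another build, so no gene is assigned to a bin and no sequence is shown. Of 43 library columns, 35 match no sample of the series and were not used.

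Depth was estimated from the step of low values: of those up to 8 RPKM, 83.0 to 84.4% lay within 0.1 read of a whole number, too few to recover reads for a count model. Bins averaging 2 RPKM or more were fitted with limma 3.58.1 (R 4.3.3, intensity trend) on log2(RPKM + 1) over 8 libraries with a term each for set-32, met-2 set-25, their product and hrde-1 (3 residual degrees of freedom). The contrast is the mean of the 2 set-32 pairs, the product term is the difference between backgrounds, tests were two-sided and adjusted by Benjamini-Hochberg over all bins. Fold changes on this scale understate changes of low bins. In simulated data for the comparison in set-32 mutants, over 100027 bins, 20% of planted 2-fold and 95% of planted 4-fold changes were recovered, with 8 false calls among 123. The simulation gave the compared libraries no difference in evenness and drew noise independently for each bin. Its share of false calls therefore does not carry over to the deposited values. Passing bins no more than 1 bin apart formed a region. Named regions are the 10 higher and 10 lower with the largest mean change among those past the threshold on both scales and moving alike in both pairs; within marks, the highest and lowest bins by quantile-normalized change that reach 10 RPKM; for the product term, the 5 largest each way. Alternatives were quantile normalization, median centring, a pseudocount of 0.5, other filters, the library prefix, the 4 set-32 libraries alone and leaving out each library. Members and lists were chosen with earlier results of these data known. Summaries were made with pandas 2.3.3 and numpy 2.4.6 in Python 3.11.15, and figures with matplotlib 3.10.9.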

Additional observations from a re-analysis of the deposited data

Results flagged for a closer look

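As deposited, the effect of met-2 set-25 loss differed between set-32 mutants and animals with SET-32 by the interaction test in 10 regions named by rule. Besides III 6971001 (-3.18) and IV 13083001 (3.11), the difference was -3.15 at III 3068001, -2.94 at III 4019001, -2.89 at III 7103001 and -2.85 at IV 4390001, bins that read 18.5 to 33.4 RPKM in the set-32 triple mutant and 16.6 to 29.4 RPKM in the quadruple mutant, against 94.5 to 151.9 RPKM in set-32 and 112.9 to 141.3 RPKM in set-32 hrde-1. On chromosome V it was 3.63 at 7406001, 3.53 at 18585001, 3.16 at 7317001 and 3.04 at 1754001, bins where set-32 read 0.33 RPKM, about 1 read. After quantile normalization these chromosome V bins did not pass (limma adjusted p 0.0742 to 0.238), nor did III 6971001 (0.066) or IV 4390001 (0.113).

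The median GRTS change was 0.81 in the hrde-1-intact pair and -0.87 in the hrde-1-mutant pair as deposited, opposite signs in single pairs. Over all bins these medians were 0.71 and 0.52. After quantile normalization the GRTS medians were 0.10 and -0.31. The difference between the pairs was not tested.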

How the results depend on the processing

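The split of calls followed the scaling. Against 36653 higher and 8241 lower bins as deposited, quantile normalization gave 420 and 460, median centring 2829 and 26163, a mean of at least 5 RPKM 2012 and 4684, the library prefix as a term 619 and 1057, and the 4 set-32 libraries alone after quantile normalization 1090 and 1181. Leaving out 1 library gave 21 to 41788 higher and 12 to 8891 lower bins. A pseudocount of 0.5, no filter, and the 4 libraries alone as deposited, with or without hrde-1 as a term, stayed within 1.5 times. With quantile normalization, in fits added after the data were seen, the prefix gave 94 and 292 bins, and leaving out 1 library 0 to 506 higher and 1 to 1271 lower. For the difference between backgrounds (36 and 216), quantile normalization gave 7 and 26, median centring 59 and 1232, a mean of at least 5 RPKM 9 and 65, a pseudocount of 0.5 21 higher, the prefix 148 higher, and leaving out 1 library 0 to 6419 and 0 to 1283. Quantile-normalized, it was 3 and 6 with the 5 RPKM filter and 1 and 0 with the prefix (limma, 4061 and 5327 at an unadjusted p below 0.05), and 0 to 230 and 0 to 258 leaving out 1 library. The causes were not tested, beyond fewer bins at the stricter filter.

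Of the named regions, 2 of 10 higher and 6 of 10 lower passed under every alternative that tested them; of the 10 difference regions, 0 did. Leaving out both evenly covered libraries leaves no comparison. No named region changed sign under an alternative. The prefix as a term comes close to leaving out the set-32 triple mutant, which alone carries its prefix. With the prefix as a term, 5 of the 10 higher regions did not pass. No paired analysis by replicate number was possible because each genotype has 1 library; hrde-1 status, which pairs the libraries, is a term of the fit. Depth limits low bins most, since 10 RPKM rested on 30.3 to 60.5 reads in the 4 libraries.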
